A study of Homo sapiens with 12 samples.

Results

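The 40 genes described here code for the machinery that licenses and copies DNA and for regulators of entry into S phase, and they were taken by symbol, with no threshold on a measured value, from the 26485 gene symbols counted in each library. The list was chosen with earlier results of these data known, so counts among its members may depend on that choice. The 40 genes were followed in DLD1 cells, an established human colorectal adenocarcinoma line, harvested 1 h after addition of a compound. The 4 groups were TCDD (the dioxin 2,3,7,8-tetrachlorodibenzo-p-dioxin), Kyn (kynurenine, a breakdown product of tryptophan), CH (CH223191, a synthetic compound) and DMSO (the solvent alone), with 3 polyadenylated RNA libraries each and 12 in all, and the submitters give 10 µM for each chemical. All 4 groups are the same unmodified line in culture, and nothing in the labels states that a group's libraries are independent cultures. P-values therefore measure the spread between these libraries, which may be technical.

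Replication origins are bound by the origin recognition complex, and CDC6 and CDT1 then load the ring of MCM2 to MCM7, the replicative helicase, in an inactive form. In S phase CDC45, the GINS complex and MCM10 activate that ring, the polymerase alpha and primase complex starts each strand, the clamp loader RFC places the PCNA clamp, and polymerases delta and epsilon extend. Many of these genes are transcribed as cells approach S phase under E2F factors, which are held back by pocket proteins. The compounds are ligands of AHR, the aryl hydrocarbon receptor, which on activation enters the nucleus and binds DNA with ARNT at sites with a GCGTG core. TCDD and kynurenine are agonists of the receptor and CH223191 is an antagonist.

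The promoters of 4 genes are printed, picked by the results or the role of the gene. CDC25A had the largest fall with CH, CDT1 the largest with TCDD, and PRIM1 was the member that rose with CH. E2F1 codes for an E2F factor. Each run is the RefSeq promoter on GRCh38.p14 from 250 bases before the annotated start to 30 bases after it, 280 bases in all, read in the direction of the gene. Capitals mark an E2F word (TTTCCCGC, TTTCGCGC, TTTGCCGC or TTTGGCGC, on either strand) or the AHR core (GCGTG, on either strand, where CACGC is its other strand). CDC25A lies at chr3:48188388-48188667 on the minus strand, CDT1 at chr16:88803539-88803818 on the plus strand, E2F1 at chr20:33686356-33686635 on the minus strand and PRIM1 at chr12:56752294-56752573 on the minus strand.
CDC25A: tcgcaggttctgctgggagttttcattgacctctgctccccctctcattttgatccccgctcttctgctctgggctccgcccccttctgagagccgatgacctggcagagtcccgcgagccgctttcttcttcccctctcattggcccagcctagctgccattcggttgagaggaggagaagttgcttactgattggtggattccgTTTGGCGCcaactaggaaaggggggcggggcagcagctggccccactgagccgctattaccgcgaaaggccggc
CDT1: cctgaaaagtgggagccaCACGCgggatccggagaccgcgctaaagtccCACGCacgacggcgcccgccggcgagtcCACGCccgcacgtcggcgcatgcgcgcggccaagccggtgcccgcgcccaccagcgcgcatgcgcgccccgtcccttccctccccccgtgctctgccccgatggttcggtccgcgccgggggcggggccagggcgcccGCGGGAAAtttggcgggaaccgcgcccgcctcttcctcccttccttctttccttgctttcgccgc
E2F1: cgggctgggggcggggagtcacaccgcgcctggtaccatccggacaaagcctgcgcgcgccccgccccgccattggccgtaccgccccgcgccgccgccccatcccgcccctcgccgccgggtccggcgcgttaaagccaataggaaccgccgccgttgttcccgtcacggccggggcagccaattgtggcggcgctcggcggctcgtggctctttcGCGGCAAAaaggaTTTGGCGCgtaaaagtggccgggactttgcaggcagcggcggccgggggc
PRIM1: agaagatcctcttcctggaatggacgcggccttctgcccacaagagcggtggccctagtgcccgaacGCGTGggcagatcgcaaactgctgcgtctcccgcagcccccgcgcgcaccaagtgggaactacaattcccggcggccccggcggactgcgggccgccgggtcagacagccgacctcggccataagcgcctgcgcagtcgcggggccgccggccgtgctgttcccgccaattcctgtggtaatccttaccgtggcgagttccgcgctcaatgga
The CDC25A window holds 1 E2F word, which begins at -44 from the start, and no AHR core. The CDT1 window holds 1 E2F word at -35 and 3 AHR cores, at -232, -201 and -173. The E2F1 window holds 2 E2F words, at -33 and -20. The PRIM1 window holds 1 AHR core, at -183, and none of the E2F words.

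RefSeq promoters were matched for 35 of the 40 genes (not for DSCC1, MCM5, GINS4, MCM4 and RPA2). Over the whole window of 300 bases, 21 of the 35 (60%) held an E2F word, against 920 of 27305 promoters of all genes (3.37%) and 551 of the 10047 tested genes with a promoter (5.48%). The MCM6 promoter held 4 such words, the highest number among the 35. The AHR core stood in 20 of 35 (57.1%), against 37% of all promoters and 52.1% of those of tested genes, and POLA2 had 6 copies. The CCAAT box (CCAAT, either strand), bound by NF-Y, stood in 57.1% against 35.7% of all promoters, and the E-box CACGTG in 11.4% against 7.42%. The cell cycle homology words TTTGAA and TTCGAA (either strand), known from G2/M genes, stood in 1 of the 35 (2.86%), against 16.3% of all promoters. For the CCAAT box, the E-box and the cell cycle homology words no share among tested genes was computed, and for the AHR core that share differed from the share of all promoters. A match is a description of letters and not evidence of binding.

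Counted reads per library lay between 21397703 and 28247146, all 40 genes passed the low-count filter among 13619 genes tested, and levels are given as CPM, counts relative to the library total after TMM scaling. CYP1A1, the classical AHR target, averaged 428 ± 15.9 CPM in the TCDD libraries, 10.1 ± 1.01 CPM with Kyn, 0.52 ± 0.188 CPM with CH and 3.22 ± 0.142 CPM with DMSO (SD, n = 3 each). CYP1B1, another AHR target, averaged 646 ± 5.84 CPM with TCDD, 97.5 ± 4.26 CPM with Kyn, 49.9 ± 3 CPM with CH and 126 ± 1.56 CPM with DMSO, so its mean with the agonist Kyn was below that with DMSO. The 7 colon epithelial markers summed to between 8350 and 8530 CPM in TCDD libraries, 9060 and 9330 CPM with Kyn, 8780 and 9000 CPM with CH and 8590 and 9070 CPM with DMSO, so the sums of the TCDD libraries lay below all others. The largest parts of the sum were KRT8 (mean 4640 CPM), KRT18 (2020 CPM) and EPCAM (1270 CPM), while KRT20 and VIL1 averaged 3.21 and 2.48 CPM. With TCDD against DMSO 4 of the 7 had a positive estimate (median log2 fold change 0.04). At edgeR adjusted p under 0.05, 1 of the 7 rose and 2 fell, against 5.91% and 5.83% of all tested genes. Over all libraries fibroblast markers summed to between 0.524 and 1.3 CPM, endothelial markers to between 1.7 and 3.15 CPM and immune markers to between 6.14 and 16.2 CPM. DCN, KDR and EMCN were at 0 in all 12 libraries. In bulk RNA, fewer cells in a phase of the cycle and less RNA of a gene per cell cannot be told apart.

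Per kilobase of transcript, the level in DMSO libraries spanned the MCM7 helicase subunit at 218 ± 1.94 CPM per kb and the E2F2 activator at 3.57 CPM per kb. The replication clamp PCNA, at 205 ± 2.88 CPM per kb, stood next to MCM7. The 6 MCM ring subunits lay between 59.2 (MCM5) and 218 CPM per kb (MCM7). The 6 genes of helicase activation lay in the narrow range of 13.9 (GINS3) to 24.1 CPM per kb (CDC45), below every MCM ring subunit. Among polymerase and primase genes the catalytic subunit POLE was lowest at 7.97 CPM per kb and POLD1 highest at 33 CPM per kb. The 40 genes together took 0.472 ± 0.00473% of counted reads in the TCDD libraries, 0.483 ± 0.00289% with Kyn, 0.439 ± 0.000577% with CH and 0.492 ± 0.00361% with DMSO (SD, n = 3 each). The libraries lay between 0.467 and 0.476% with TCDD, 0.481 and 0.486% with Kyn, 0.438 and 0.439% with CH and 0.488 and 0.495% with DMSO, so those of each compound were wholly below the DMSO libraries.

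**Figure D1:**
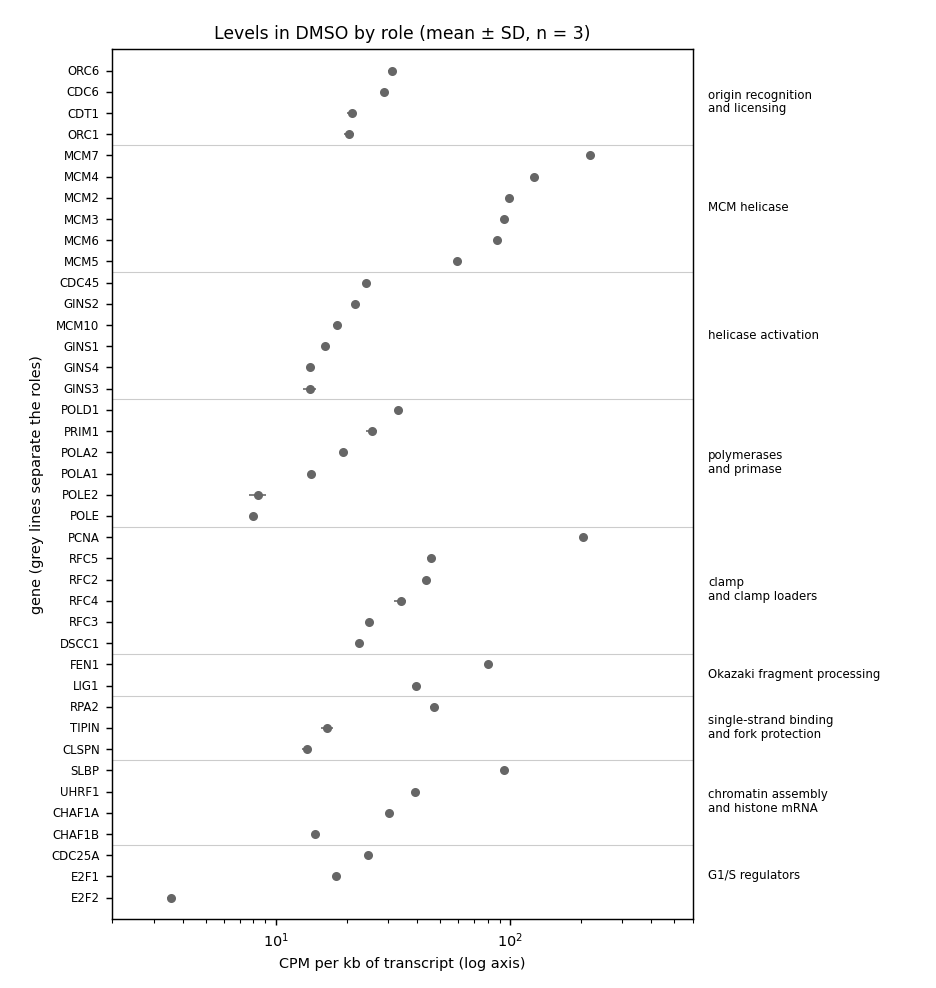
Level of each of the 40 genes in DMSO cells, as CPM per kb of transcript on a log axis, with points for the mean and bars for the SD of 3 libraries, grouped by role. MCM7 (218) and PCNA (205) stand at the top and E2F2 (3.57) at the bottom, and the MCM ring subunits lie above the genes of helicase activation.

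CH223191 lowered most of the replication genes at 1 h. Of the 40 genes 30 fell and 1, PRIM1, rose, while over all tested genes 16.9% fell and 15.9% rose (edgeR quasi-likelihood test, Benjamini-Hochberg adjusted p under 0.05, as for every adjusted p here). The median log2 fold change of the 40 was -0.20, or -12.7% on a linear scale, against 0 over all tested genes, and 35 of the 40 had a negative estimate. In 31 of the 40 every CH library lay below every DMSO library, against 22.1% of all tested genes. The share of reads outside annotated genes was 7.94 ± 0.434% in CH libraries and 9.03 ± 0.778% in DMSO libraries (SD, n = 3 each), with overlapping ranges, and its part in these results was not tested. With GC and length trends removed 32 of the 40 fell and 1 rose with CH, while over all tested genes 3312 fell and 1908 rose, against 2299 and 2171 without that step. With library totals alone 28 fell and 1 rose, while over all tested genes 1814 fell and 2599 rose.

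**Figure D2:**
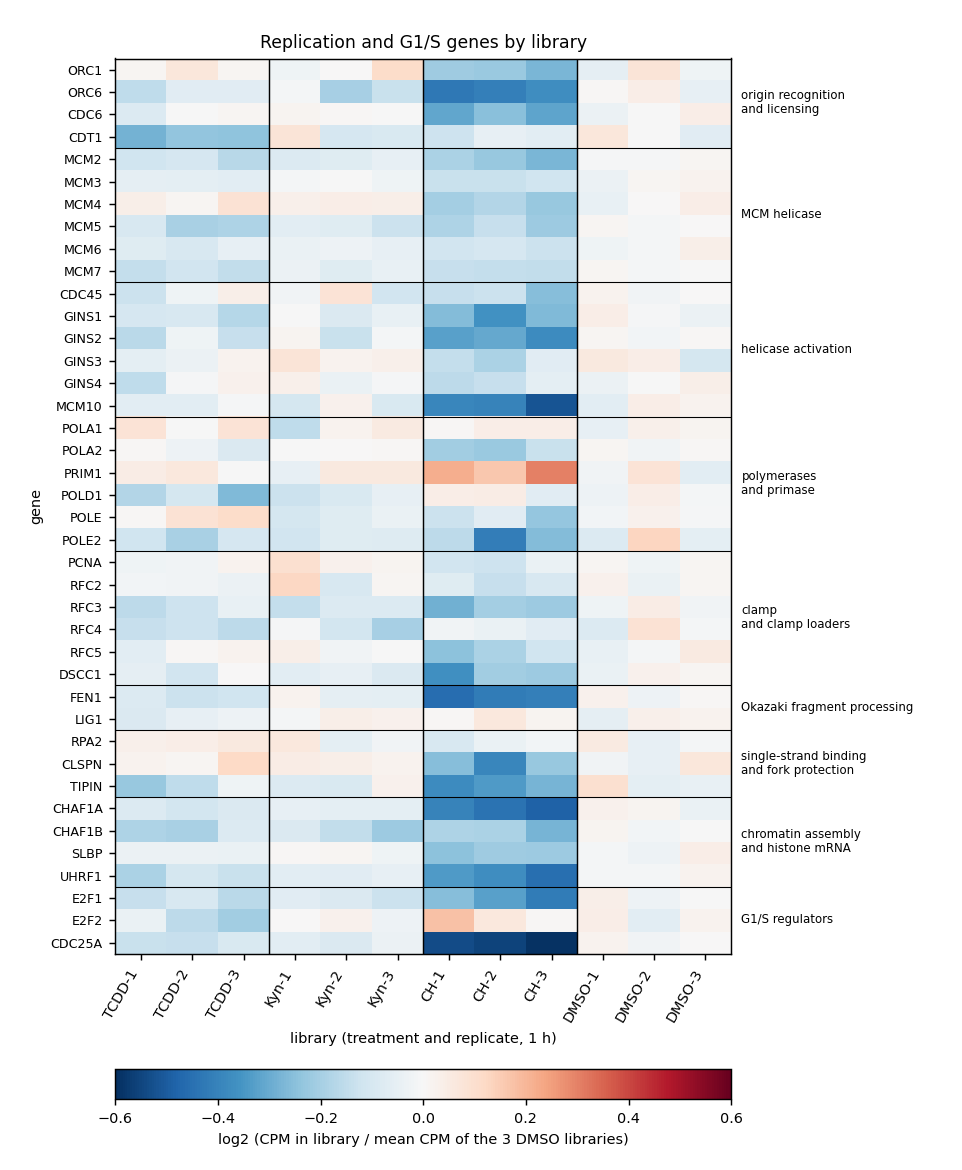
Log2 ratio of CPM in each of the 12 libraries (columns) to the mean of the 3 DMSO libraries, for each of the 40 genes (rows) grouped by role, with blue for lower and red for higher. The 3 CH columns are blue in most rows, deepest for CDC25A, and PRIM1 is the deepest red row there.

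The G1/S regulators held the largest change. CDC25A, the phosphatase that activates cyclin-dependent kinases at the G1/S step, had 65.7, 64.7 and 63.2 CPM in the CH libraries, against 96.5, 93.8 and 95.2 CPM in the DMSO libraries. No library of either group came near the other. The means were 64.5 ± 1.27 CPM with CH and 95.2 ± 1.37 CPM with DMSO (SD, n = 3 each), a log2 fold change of -0.56 (SE 0.038), or 32.2% lower with CH (adjusted p = 3.2e-14). E2F1, an activator of G1/S transcription, had 40.6, 38.6 and 36.2 CPM in the CH libraries, against 49.6, 47.4 and 48.3 CPM in the DMSO libraries, and it fell by 0.33 on the log2 scale (SE 0.047, adjusted p = 9.8e-07) with no overlap. E2F2, the related activator, averaged 19.6 ± 1.19 CPM with CH and 18.5 ± 0.714 CPM with DMSO, with overlapping libraries (log2 fold change 0.09, adjusted p = 0.3).

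In origin recognition and licensing 3 of 4 genes fell and CDT1 did not pass. ORC6, the smallest subunit of the origin recognition complex, had 37.2, 37.8 and 38.7 CPM in the CH libraries, against 50.5, 51.6 and 48.6 CPM in the DMSO libraries. The groups were apart by more than their own ranges, with a log2 fold change of -0.41 (SE 0.049, adjusted p = 3.7e-08). CDC6, the ATPase that recruits the MCM ring to origins, had 106, 111 and 106 CPM in the CH libraries, against 129, 132 and 136 CPM in the DMSO libraries, and it fell by 0.29 (log2, SE 0.037, adjusted p = 9.6e-08) without overlap. ORC1, the largest origin subunit, fell by 0.24 (log2, adjusted p = 8.8e-05). CDT1, the loading partner of CDC6, had 51.3, 53.9 and 53.5 CPM in the CH libraries, against 58.4, 55.8 and 53.2 CPM in the DMSO libraries, and the highest CH library lay above the lowest DMSO library (log2 fold change -0.08, adjusted p = 0.21).

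All 6 subunits of the MCM ring fell with CH. Their log2 fold changes ran between -0.23 and -0.11, with MCM2 at -0.23 (289 ± 8.46 CPM with CH and 339 ± 2.76 CPM with DMSO, adjusted p = 8.2e-07) and MCM6 at -0.11 (304 ± 2.66 CPM with CH and 329 ± 7.12 CPM with DMSO, adjusted p = 0.0046). In each of the 6 genes the CH libraries lay below every DMSO library.

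Among the 6 genes that activate the helicase 5 fell with CH. MCM10, which binds the opened helicase and the lagging-strand polymerase, had 63.1, 62.5 and 57.8 CPM in the CH libraries, against 79, 84.9 and 84 CPM in the DMSO libraries, a log2 fold change of -0.43 (SE 0.044, adjusted p = 1.2e-09). GINS2 and GINS1 are subunits of the GINS complex. GINS2 had 45.5, 46 and 43.9 CPM in the CH libraries, against 57.5, 56.4 and 57.3 CPM in the DMSO libraries (log2 fold change -0.34, SE 0.047, adjusted p = 6.4e-07). GINS1 had 44.4, 41.3 and 44.2 CPM in the CH libraries, against 54.6, 53 and 51.8 CPM in the DMSO libraries (log2 fold change -0.30, SE 0.045, adjusted p = 3.4e-06). All 3 genes had CH libraries that stood wholly below the DMSO libraries. CDC45 fell by 0.17 (log2, adjusted p = 0.01), and its call ended without CH replicate 3 (adjusted p = 0.07). GINS4 stood at the threshold (-0.12, adjusted p = 0.0499967), and GINS3 just outside it (-0.14, adjusted p = 0.051, with overlapping libraries). The GINS4 call ended in 14 of 20 alternative analyses, among them those without any 1 of the 3 DMSO libraries, CH replicate 1 or 2, TCDD replicate 2, or Kyn replicate 2 or 3, with adjusted p up to 0.17.

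Among polymerases and primase 3 of 6 genes fell with CH and 1 rose. PRIM1, the catalytic subunit of the primase that makes the RNA start of each strand, had 42.3, 40.8 and 44.9 CPM in the CH libraries, against 35.9, 38.6 and 34.8 CPM in the DMSO libraries. The lowest CH library lay above the highest DMSO library, with means of 42.6 ± 2.07 CPM with CH and 36.4 ± 1.95 CPM with DMSO, a log2 fold change of 0.22 (SE 0.05) and 16.8% more reads with CH (adjusted p = 0.00068). Its partner in the same complex POLA2, the second subunit of polymerase alpha, fell by 0.19 (log2, 60.3 ± 2.01 CPM with CH and 68.7 ± 0.902 CPM with DMSO, adjusted p = 0.00043). POLA1, the catalytic subunit of that complex, stood at 79.2 ± 0.941 CPM with CH and 77.6 ± 2.3 CPM with DMSO (log2 fold change 0.03, adjusted p = 0.67). Polymerase delta's POLD1 averaged 114 ± 4.99 CPM with CH and 113 ± 2.73 CPM with DMSO (0.01, adjusted p = 0.91), whereas the polymerase epsilon subunits POLE (-0.14, adjusted p = 0.015) and POLE2 (-0.28, adjusted p = 0.0067) fell. The POLE call ended without DMSO replicate 2 or CH replicate 3 (adjusted p up to 0.12) and the POLE2 call without DMSO replicate 2 or CH replicate 2 (up to 0.087).

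PRIM1 shares exon bases with neighbours on chromosome 12 (GENCODE 44, GRCh38): 123 bases (8.64% of its transcript) with HSD17B6 on the opposite strand and 49 bases (3.44%) with NACA on the same strand. Whether counting used strand is not given in the sources used here, so reads from the bases shared with HSD17B6 cannot be told apart. For the bases shared with NACA, strand would not separate the reads. With CH, HSD17B6 had a log2 fold change of 0.10 (adjusted p = 0.59) at 3.57 CPM with CH and 3.32 CPM with DMSO, and NACA one of -0.01 (adjusted p = 0.82). FEN1 shares 2.43% of its transcript with FADS2, which rose by 0.26 with CH (log2, adjusted p = 0.0084) while FEN1 fell, and CHAF1B shares 1.99% with MORC3 (-0.06, adjusted p = 0.42). GINS2 shares 0.266% with GSE1, which rose by 0.09 with CH (log2, adjusted p = 0.035). With TCDD against DMSO FADS2 had a log2 fold change of -0.21 (adjusted p = 0.1), the same direction as FEN1. There MORC3 stood at 0.10 (adjusted p = 0.24) and GSE1 at 0.12 (adjusted p = 0.019).

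Of the clamp and clamp loader genes 4 of 6 fell with CH. DSCC1, part of the alternative loader that acts in sister chromatid cohesion, fell by 0.27 (log2, 41.6 ± 2.55 CPM with CH and 49.9 ± 1.19 CPM with DMSO, adjusted p = 3.9e-05), and RFC3, a small subunit of the loader, by 0.24 (adjusted p = 7.3e-05). The others of the 6 had log2 fold changes between -0.19 (RFC5) and -0.04 (RFC4), and RFC2 and RFC4 did not pass. PCNA, the clamp itself, fell by 0.09 (log2, adjusted p = 0.03), and this call ended without DMSO replicate 1 or 3, without CH replicate 1 or 2, with library totals alone and with the stricter low-count filter (adjusted p up to 0.16).

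Of the pair that processes Okazaki fragments FEN1 fell with CH and LIG1 did not pass. FEN1, the nuclease that trims the flap at each fragment, had 118, 121 and 122 CPM in the CH libraries, against 165, 158 and 163 CPM in the DMSO libraries, a log2 fold change of -0.43 (SE 0.035), or 25.7% lower, with a wide gap between the groups (adjusted p = 4.8e-12). LIG1, the ligase that seals the nick which FEN1 leaves, averaged 126 ± 2.55 CPM with CH and 123 ± 3.91 CPM with DMSO, and its libraries overlapped (log2 fold change 0.03, adjusted p = 0.59).

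In fork protection and chromatin assembly 6 of 7 genes fell with CH, all but RPA2. CLSPN, or claspin, the mediator of checkpoint signalling at forks, had 96.3, 87.6 and 98.1 CPM in the CH libraries, against 113, 111 and 120 CPM in the DMSO libraries (log2 fold change -0.29, SE 0.042, adjusted p = 1.3e-06). TIPIN, which with TIMELESS holds the fork together, had 21.9, 22.5 and 23.5 CPM in the CH libraries, against 30.5, 27.4 and 27.6 CPM in the DMSO libraries (log2 fold change -0.33, SE 0.059, adjusted p = 3.3e-05). Neither overlapped between groups, whereas RPA2, a subunit of the single-strand binding protein, stood at -0.05 (adjusted p = 0.39) with overlapping libraries. CHAF1A, the large subunit of the histone chaperone CAF-1, had 77.2, 75.2 and 72.9 CPM in the CH libraries, against 104, 103 and 99.3 CPM in the DMSO libraries, a log2 fold change of -0.44 (SE 0.037), or 26.4% lower (adjusted p = 1.1e-11). UHRF1, which brings DNA methylation to new DNA, had 120, 117 and 111 CPM in the CH libraries, against 151, 151 and 154 CPM in the DMSO libraries (log2 fold change -0.39, SE 0.036, adjusted p = 1.2e-10). For both genes the highest CH library was far below the lowest DMSO library. CHAF1B, the second CAF-1 subunit, and SLBP, the stem-loop binding protein of histone mRNA, each fell by 0.22 (log2, adjusted p = 0.00024 and 2.4e-06).

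**Figure D3:**
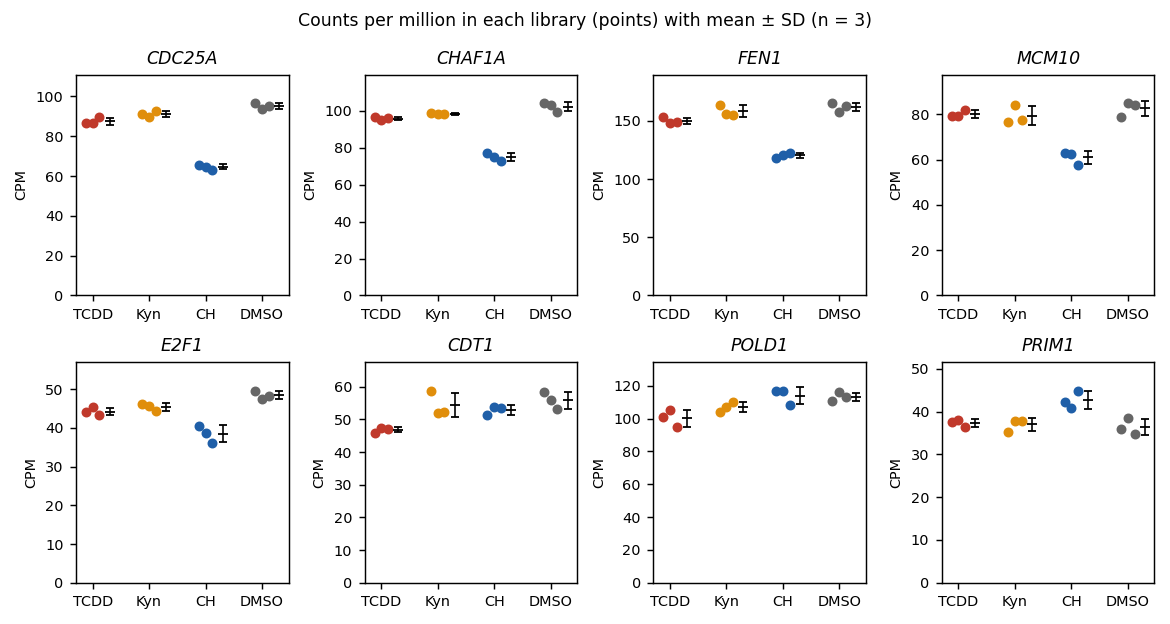
CPM of 8 genes in each library (points) with the mean and SD of 3 libraries, for TCDD, Kyn, CH and DMSO, on axes that start at 0. CDC25A, CHAF1A, FEN1, MCM10 and E2F1 are lowest in CH libraries, CDT1 and POLD1 have their lowest mean with TCDD, and PRIM1 is highest in CH libraries.

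TCDD lowered CDT1, POLD1, MCM2, MCM5, MCM7, CHAF1B, UHRF1, CDC25A and FEN1. These were 1 of 4 genes of origin recognition and licensing, 3 of 6 MCM ring subunits, 1 of 6 polymerase and primase genes, 1 of 2 of Okazaki fragment processing, 2 of 4 of chromatin assembly and histone mRNA and 1 of 3 G1/S regulators. Of the 40 genes 9 fell and 0 rose, against 5.83% and 5.91% of all tested genes, and DESeq2 also gave 9 and 0. In edgeR 17 of the 40 had an unadjusted p under 0.05, all of them lower. Over all 13619 tested genes 3377 had such a p, 1705 of them lower. The median log2 fold change of the 40 was -0.07 against 0 over all tested genes, and 33 of the 40 were negative. In 20 of the 40 every TCDD library lay below every DMSO library, against 13.6% of all tested genes. With GC and length trends removed 14 of the 40 fell and 0 rose, while over all tested genes 797 fell and 478 rose, against 794 and 805 without that step. Alignments that were not unique made up 3.89 ± 0.374% of reads in TCDD libraries and 3.2 ± 0.25% in DMSO libraries (SD, n = 3 each), without overlap. Counted reads were also fewer, between 22834076 and 24726740 in TCDD libraries and between 26403109 and 27579937 in DMSO libraries. The part of either in these results, and that of the lower colon epithelial marker sum, was not tested.

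CDT1, the licensing factor, had 45.9, 47.3 and 47.2 CPM in the TCDD libraries, against 58.4, 55.8 and 53.2 CPM in the DMSO libraries. The TCDD libraries were close together and wholly below the DMSO libraries, with means of 46.8 ± 0.805 CPM with TCDD and 55.8 ± 2.6 CPM with DMSO, a log2 fold change of -0.25 (SE 0.049) or 16.1% lower (adjusted p = 0.00043). POLD1, the catalytic subunit of polymerase delta, had 101, 105 and 94.6 CPM in the TCDD libraries, against 111, 116 and 113 CPM in the DMSO libraries (log2 fold change -0.18, SE 0.041, adjusted p = 0.0028), again with no overlap. CDT1 and POLD1 were the 2 genes that passed with TCDD and not with CH, and the direct comparison of TCDD with CH also put both lower with TCDD (-0.18, adjusted p = 0.0048, and -0.19, adjusted p = 0.00044). The CDT1 call in that comparison ended once GC and length trends were removed (adjusted p = 0.06).

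With TCDD, 3 subunits of the MCM ring fell. MCM5 had 192, 179 and 180 CPM in the TCDD libraries, against 206, 203 and 205 CPM in the DMSO libraries (log2 fold change -0.16, SE 0.035, adjusted p = 0.0023). MCM7 had 485, 495 and 484 CPM in the TCDD libraries, against 542, 533 and 536 CPM in the DMSO libraries (-0.14, SE 0.03, adjusted p = 0.0019). MCM2 had 312, 316 and 302 CPM in the TCDD libraries, against 337, 338 and 342 CPM in the DMSO libraries (-0.13, SE 0.032, adjusted p = 0.0063). In each of these subunits the highest TCDD library lay below the lowest DMSO library. MCM4 stood on the other side of 0, at 526 ± 13.9 CPM with TCDD and 510 ± 14.5 CPM with DMSO (0.05, adjusted p = 0.4). Without TCDD replicate 3 the MCM2 call ended (adjusted p = 0.062).

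The other 4 falls with TCDD were in chromatin assembly, flap removal and the G1/S step. CHAF1B had 57.3, 57 and 61.5 CPM in the TCDD libraries, against 65.9, 64.4 and 65.1 CPM in the DMSO libraries (log2 fold change -0.15, SE 0.044, adjusted p = 0.02). UHRF1 had 133, 141 and 139 CPM in the TCDD libraries, against 151, 151 and 154 CPM in the DMSO libraries (-0.14, SE 0.036, adjusted p = 0.0069). For both genes the highest TCDD library lay below the lowest DMSO library. CDC25A had 86.7, 86.4 and 89.4 CPM in the TCDD libraries, against 96.5, 93.8 and 95.2 CPM in the DMSO libraries (-0.12, SE 0.037, adjusted p = 0.028). FEN1 had 153, 148 and 149 CPM in the TCDD libraries, against 165, 158 and 163 CPM in the DMSO libraries (-0.11, SE 0.035, adjusted p = 0.033). In both genes the TCDD libraries lay below the DMSO libraries and far above the CH libraries. The calls of CDC25A and CHAF1B ended when DMSO replicate 1 or 3 was left out, or TCDD replicate 1 or 2 (adjusted p up to 0.11 and 0.093). That of FEN1 ended when DMSO replicate 1 or 3 was left out, or TCDD replicate 2 or 3 (up to 0.13), and that of UHRF1 without TCDD replicate 1 (0.063).

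Of the remaining roles, helicase activation had 0 of 6 genes called with TCDD by edgeR or DESeq2. An unadjusted p under 0.05 was found for 2 of the 6, against 3377 of all 13619 tested genes. All 6 estimates were negative, between -0.12 (GINS1, adjusted p = 0.072) and -0.02 (GINS3), while 6775 of all tested genes were negative. The clamp and clamp loader genes also had 0 of 6 called by either tool and 2 of 6 with an unadjusted p under 0.05, with RFC4 at -0.14 (adjusted p = 0.065) and PCNA at -0.01 (adjusted p = 0.91). In single-strand binding and fork protection 0 of 3 were called by edgeR. There CLSPN stood at 0.05, RPA2 at 0.04 and TIPIN at -0.13 (adjusted p = 0.47, 0.55 and 0.15). E2F1 had 44, 45.3 and 43.3 CPM in the TCDD libraries, against 49.6, 47.4 and 48.3 CPM in the DMSO libraries, below every DMSO library yet just short of the threshold (-0.13, adjusted p = 0.061).

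Kynurenine changed none of the 40 genes past the threshold. By edgeR and by DESeq2 0 rose and 0 fell, against 0.154% and 0.14% of all tested genes. In edgeR 8 of the 40 had an unadjusted p under 0.05, all of them lower. Over all 13619 tested genes 913 had such a p, 502 of them lower. The median log2 fold change of the 40 was -0.04 against 0 over all tested genes. In 13 of the 40 every Kyn library lay below every DMSO library, against 6.19% of all tested genes, and in 1, PCNA, every Kyn library lay above (5.23%). The smallest adjusted p was that of CHAF1B, which had 61.4, 58.7 and 56 CPM in the Kyn libraries, against 65.9, 64.4 and 65.1 CPM in the DMSO libraries. Those ranges did not overlap, and the log2 fold change of -0.15 (SE 0.044) was close to the -0.15 seen with TCDD, but it did not pass over all genes (adjusted p = 0.23).

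**Figure D4:**
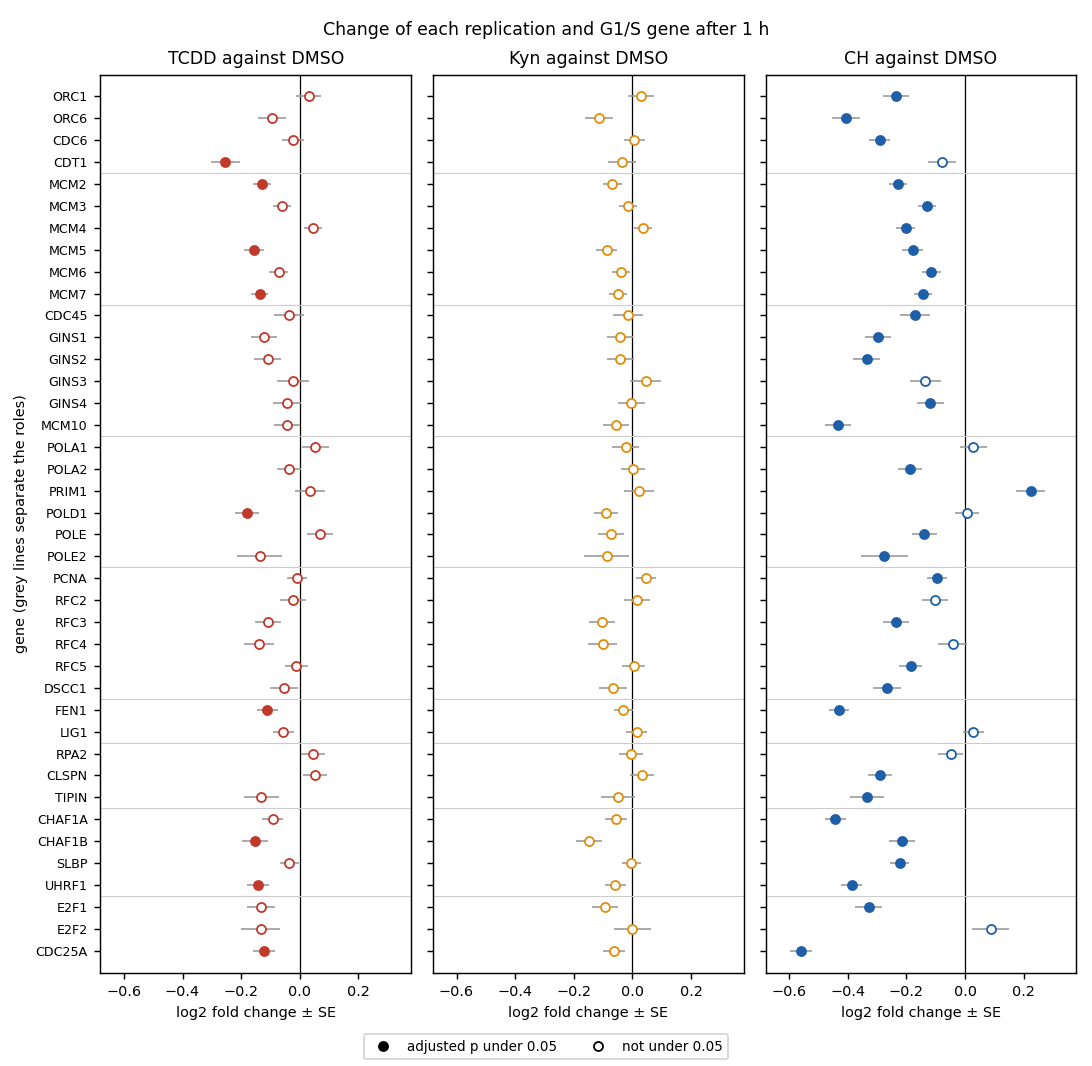
Log2 fold change of each of the 40 genes against DMSO for TCDD, Kyn and CH, with bars for the SE and filled points for adjusted p under 0.05. With TCDD 9 points are filled, with Kyn 0, and with CH 31, of which PRIM1 alone lies to the right of 0.

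The 3 comparisons share the DMSO libraries, so their values are set side by side only. CDC25A had log2 fold changes of -0.12 with TCDD, -0.06 with Kyn and -0.56 with CH. CHAF1A had -0.09 with TCDD, -0.05 with Kyn and -0.44 with CH. MCM10 had -0.04 with TCDD, -0.06 with Kyn and -0.43 with CH. In these genes the estimate with CH was several times the size of the others. MCM7 had -0.14 with TCDD, -0.05 with Kyn and -0.14 with CH, and MCM5 had -0.16 with TCDD, -0.09 with Kyn and -0.18 with CH, so the estimates with TCDD and CH were of like size. PRIM1 had 0.03 with TCDD, 0.02 with Kyn and 0.22 with CH. Those that passed lower with both TCDD and CH were 7 (MCM2, MCM5, MCM7, FEN1, CHAF1B, UHRF1 and CDC25A). Another 23 passed lower with CH and not with TCDD, and 7 passed in none of the 3 (GINS3, POLA1, RFC2, RFC4, LIG1, RPA2 and E2F2). Over all tested genes 5.83% fell with TCDD and 16.9% with CH. The shares of all tested genes that passed in both or in none were not counted, so these patterns have no background beside them.

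**Figure D5:**
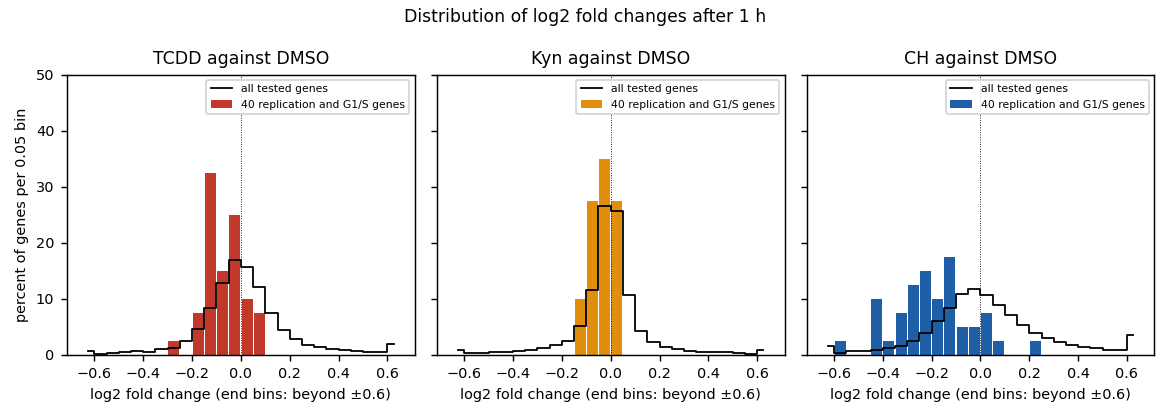
Distribution of log2 fold changes against DMSO for the 40 genes (bars) and all 13619 tested genes (line), as the percent of genes per bin of 0.05, for TCDD, Kyn and CH. Most of the 40 genes lie to the left of 0, namely 33 with TCDD (median -0.07), 29 with Kyn (median -0.04) and 35 with CH (median -0.20), while the median of all tested genes is 0 in each panel.

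Compared directly at the same time and stated dose, TCDD and CH differed in 27 of the 40 genes, against 37.1% of all tested genes. With TCDD 23 were higher than with CH and 4 lower, against 19% and 18.1% of all tested genes. The widest gaps were those of CDC25A (87.5 ± 1.63 CPM with TCDD and 64.5 ± 1.27 CPM with CH, log2 fold change 0.44, adjusted p = 2.2e-11), MCM10 (0.39), CHAF1A (0.35), CLSPN (0.34), FEN1 (0.32) and ORC6 (0.31). The 4 genes lower with TCDD were E2F2 (16.9 ± 1.01 CPM with TCDD and 19.6 ± 1.19 CPM with CH, -0.22, adjusted p = 0.0076), PRIM1 (-0.19, adjusted p = 0.0035), POLD1 and CDT1. The E2F2 call ended without TCDD replicate 3 or CH replicate 1 (adjusted p up to 0.076). MCM5 and MCM7, which had passed lower with each compound against DMSO, stood at 0.02 (SE 0.035) and 0.01 (SE 0.03) between them, and neither difference passed (adjusted p = 0.65 and 0.88).

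Kyn and CH differed in 28 of the 40 genes, against 33% of all tested genes. With Kyn 27 were higher than with CH and 1, PRIM1, was lower (37 ± 1.58 CPM with Kyn and 42.6 ± 2.07 CPM with CH, -0.20, adjusted p = 0.0019), against 16.6% and 16.4% of all tested genes. CDC25A led again (91.2 ± 1.61 CPM with Kyn and 64.5 ± 1.27 CPM with CH, 0.50, adjusted p = 9.6e-13), before FEN1 (0.40), CHAF1A (0.39), MCM10 (0.38), UHRF1 (0.33) and CLSPN (0.32). With GC and length trends removed 32 were higher and 1 lower with Kyn, while 3363 of all tested genes were higher and 1946 lower, against 2267 and 2228 without that step. With library totals alone 22 were higher and 2 lower with Kyn, while 1765 of all tested genes were higher and 2748 lower.

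The agonists TCDD and Kyn differed in 2 of the 40 genes, against 9.19% of all tested genes, made up of 5.1% higher and 4.09% lower with TCDD. With GC and length trends removed 413 of all tested genes were higher and 729 lower with TCDD, against 695 and 557 without that step. CDT1 was lower with TCDD, with 45.9, 47.3 and 47.2 CPM in the TCDD libraries, against 58.8, 52 and 52.4 CPM in the Kyn libraries (-0.22, SE 0.049, adjusted p = 0.0026). The ranges were apart, although Kyn replicate 1 was well above the other pair. POLE was higher with TCDD, with 62.6, 66.3 and 67.3 CPM in the TCDD libraries, against 57.9, 59.3 and 60.6 CPM in the Kyn libraries (0.14, SE 0.044, adjusted p = 0.039). Both calls ended without Kyn replicate 1 (adjusted p = 0.052 for CDT1), and that of POLE also without Kyn replicate 2, without TCDD replicate 2 or 3, with no low-count filter and with GC and length trends removed (adjusted p up to 0.21). Over the 4 groups together 34 of the 40 genes differed, against 43.6% of all tested genes, and GINS4, POLA1, RFC2, RFC4, LIG1 and RPA2 did not pass.

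Split by the promoter's letters, 16 of 21 members with an E2F word (76.2%) and 10 of 14 without it (71.4%) fell with CH, with median log2 fold changes of -0.23 and -0.20. With TCDD 5 of 21 (23.8%) and 3 of 14 (21.4%) fell. Of the other tested genes that hold the word 115 of 530 (21.7%) fell and 15.3% rose with CH, against 17.5% and 16.4% of tested genes without it. The median log2 fold change with CH was -0.01 for those 530 and 0 for tested genes without the word. With TCDD 29 of the 530 (5.47%) fell, against 6.04% of tested genes without the word. The CDC25A promoter has the word, whereas FEN1, CHAF1A, MCM10 and ORC6, which followed it in size of fall, do not hold it in their windows. The next in size of fall with CH, namely UHRF1, GINS2, TIPIN, E2F1, GINS1, CDC6, CLSPN and POLE2, all hold it.

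Of 38 replication factors outside the 40 genes 12 fell and 4 rose with CH, against 16.9% and 15.9% of all tested genes, with a median log2 fold change of -0.07 against 0. ASF1B, a histone chaperone that hands histones to CAF-1, fell by 0.29 (log2, adjusted p = 1.2e-07), and ATAD5, which unloads PCNA, fell by 0.40 (adjusted p = 4.1e-06). The polymerase epsilon subunit POLE3 (-0.22, adjusted p = 5e-06) and the large single-strand binding subunit RPA1 (-0.18, adjusted p = 2.6e-05) fell too, while RPA2, which binds RPA1, did not pass. With TCDD 3 fell and 0 rose, against 5.83% and 5.91% of all tested genes (RECQL4 -0.18, POLD2 -0.14, POLE4 -0.21, adjusted p = 0.0047, 0.0069 and 0.0079), DESeq2 gave the same counts, and 3 had an unadjusted p under 0.05 on the higher side. Over all 13619 tested genes 1672 had such a p on the higher side with TCDD. With Kyn 0 of the 38 passed by edgeR or DESeq2, against 0.154% higher and 0.14% lower of all tested genes in edgeR. An unadjusted p under 0.05 with Kyn was found for 2 of the 38, against 913 of all 13619 tested genes.

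Of 16 E2F and pocket protein genes 10 fell and 3 rose with CH, against 16.9% and 15.9% of all tested genes. TFDP1, the main dimer partner of E2F factors, fell by 0.17 (log2, 319 ± 1.71 CPM with CH and 360 ± 7.47 CPM with DMSO, adjusted p = 3.6e-05), whereas its relative TFDP2 rose by 0.36 (47.1 ± 2.46 CPM with CH and 36.6 ± 1.61 CPM with DMSO, adjusted p = 7.3e-07). The activator E2F3 (-0.25, adjusted p = 1.6e-05) and the repressor E2F4 (-0.19, adjusted p = 0.00016) fell. With TCDD 1 of the 16 fell, against 5.83% of all tested genes, namely MYBL2 (-0.17, adjusted p = 0.0019), a factor of the late cell cycle programme. With Kyn 0 of the 16 passed by edgeR or DESeq2, against 0.154% higher and 0.14% lower of all tested genes in edgeR. An unadjusted p under 0.05 with Kyn was found for 1 of the 16, against 913 of all 13619 tested genes.

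Of 11 S-phase checkpoint genes 4 fell and 2 rose with CH, against 16.9% and 15.9% of all tested genes. CDC25C, the mitotic relative of CDC25A, rose by 0.45 (log2, 37.2 ± 1.06 CPM with CH and 27.2 ± 0.654 CPM with DMSO, adjusted p = 5.7e-08), so the paralogues moved in opposite directions. RAD17, the loader of the checkpoint clamp, rose by 0.28 (adjusted p = 4.2e-05), while RAD1, a subunit of that clamp, fell by 0.24 (adjusted p = 9.9e-05) and WEE1, the kinase that opposes CDC25 phosphatases, fell by 0.18 (adjusted p = 6e-04). With TCDD and with Kyn 0 of the 11 passed by edgeR or DESeq2, with 1 at an unadjusted p under 0.05 in each.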

How the data were processed

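The authors deposited raw read counts per gene symbol for 12 libraries. Per the submitters' processing notes, reads were trimmed with Trim Galore, aligned to hg38 with STAR 2.7.2b, sorted with SAMtools 1.9 and counted with HTSeq, whereas the labels' protocol text gives STAR 2.5.2b and does not mention CH. HTSeq summary lines, with 7.54 to 9.66% of reads outside genes, were left out. Counts were tested with edgeR 4.0.16 (R 4.3.3): TMM factors (0.988 to 1.02), filterByExpr with a minimum count of 10, a quasi-likelihood fit over all 12 libraries with 1 coefficient per group, and Benjamini-Hochberg adjustment over 13619 genes, called at adjusted p under 0.05. The common biological coefficient of variation, 3.22%, and the depth set the precision. The script was tested on simulated data.

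The members and lists were chosen with earlier results of these data known. Genes named were called members in order of absolute log2 fold change (up to 12 each way against DMSO, 6 between compounds), others at most 2 a role, and up to 4 called genes by p of each further list. Those beyond that were chosen after their values were seen. Levels per kb use the GENCODE 44 canonical transcript. Also tried were library totals alone, RLE factors, no or a stricter low-count filter, a replicate block, DESeq2 1.42.0, a fit of the compared groups alone, removal of GC and length trends, and each library left out.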

Additional observations from a re-analysis of the deposited data

How the results depend on the processing

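No called difference of a member reversed under any of the 20 alternatives. Of the calls against DMSO 4 of 9 with TCDD and 26 of 31 with CH held in all 20, as did 20 of 27 between TCDD and CH, 22 of 28 between Kyn and CH and 0 of 2 between TCDD and Kyn. With GC and length trends removed 14 genes fell with TCDD, not 9, adding GINS1, MCM6, RFC3, RFC4 and TIPIN. The count higher with TCDD than Kyn was 0, not 1, under that setting and with no low-count filter, and the count lower was 2 with DESeq2. The count lower with Kyn than CH was 2, not 1, with library totals alone and at a minimum of 5 CPM in 3 libraries. The cause was not tested. With 1 library left out, the count higher with TCDD than Kyn was 0 to 1, that lower 0 to 1, and that lower with Kyn than CH 1 to 2. The count of falls was 6 to 10 with TCDD and 27 to 31 with CH, and that of genes differing over the 4 groups was 29 to 35.

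The library numbers share no stated culture. Deviations of log2 CPM from the group mean were compared between libraries of different groups. Their correlations lay between -0.055 and 0.037 for same-numbered pairs and between -0.053 and 0.083 for other pairs. A replicate block gave 9 falls with TCDD, 29 falls and 1 rise with CH, and 34 genes over the 4 groups. Small changes in weakly counted genes such as POLE2 are limited by depth.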
